A study of Hydra vulgaris with 15 samples.

Results

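The comparison described here is that of head and body column tissue in control polyps of the freshwater cnidarian Hydra vulgaris. Its members are the 4 control head libraries (replicates 1 to 4) and the 3 control body column libraries (replicates 2, 3 and 4), 7 of the 15 libraries of the series, chosen by the treatment and tissue in their titles. The other 8 libraries, 4 heads and 4 body columns, came from polyps treated by RNA interference (RNAi) against the transcription factor Zic4. The design addressed the effect of Zic4 in head and body column, and the control libraries give the difference between these tissues without that treatment.

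All polyps were of the strain given as Basel1. Those of the control group are labelled wild-type, and the treated group is labelled Zic4 RNAi. Per the labels, intact polyps were starved for 4 days and electroporated 4 times, every other day, and RNA was taken 1 day after the last electroporation from 20 polyps per condition. What the control polyps were electroporated with and where the body was cut are not stated in the labels. The source field of every library reads entire animal while the tissue field reads head or body column, and the tissue field was followed here. Nothing states whether replicates came from separate cultures, so p-values measure only the spread between these libraries, which may be technical.

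Hydra is a tube of 2 epithelial layers with a head at one end and an adhesive basal disk at the other. The head holds the mouth region, or hypostome, and a ring of tentacles, whose epithelial cells carry stinging cells (nematocytes) and have left the cell cycle. The tip of the hypostome acts as an organizer that is maintained by Wnt signalling. The body column holds dividing epithelial cells and most of the interstitial stem cells and dividing nematocyte precursors, as well as digestive gland cells, and its tissue is displaced steadily towards both ends.

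The deposited values were expected counts, that is, reads per assembled transcript as estimated by a program, which can be fractions. The 7 control libraries held between 16022221 and 21016681 counts. No table used here pairs the transcript IDs with gene names, since 0 of 79784 IDs matched a RefSeq gene table of 28925 genes. The tissue labels could therefore not be checked against marker genes, and transcripts are given by ID with no gene name, position or sequence. Contig lengths were not used here, so normalized counts (CPM, scaled by the library total and its composition factor) compare libraries for 1 transcript and do not rank the RNA of different transcripts. Because tissue was measured in bulk, fewer cells of a type and less RNA per cell cannot be told apart in any value below.

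More different transcripts were detected in each head than in any body column. After every library was thinned to the smallest total of 16022221 counts, control heads had a count for 41183, 40440, 39193 and 39390 transcripts in replicates 1 to 4. Body columns had 35457, 34674 and 36717 in replicates 2, 3 and 4. Each head lay above each body column, and the means were 40050 ± 932 (SD, n = 4) and 35620 ± 1031 (SD, n = 3). The two-sided exact permutation p was 0.0571, the smallest that 4 against 3 libraries can give, and 0.143 after Benjamini-Hochberg (BH) adjustment over 5 library measures, so this test cannot pass 0.05 with these group sizes. With at least 10 counts required, 26470 ± 385 transcripts were detected in heads (SD, n = 4) and 24290 ± 329 in body columns (SD, n = 3), again without overlap between the tissues.

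Counts were spread over more transcripts in each head than in any body column. The number of transcripts that together held 50% of a library was 472, 396, 425 and 526 in the heads and 333, 292 and 393 in the body columns. The lowest head, replicate 2, lay just above the highest body column, replicate 4 (exact permutation p = 0.0571, adjusted 0.143). The 100 transcripts with the most counts took 30.6% ± 2.22% of the counts in heads (SD, n = 4) and 33.9% ± 2.11% in body columns (SD, n = 3), ranges that overlapped (exact permutation p = 0.114, adjusted 0.143). The transcript with the most counts of all varied widely within tissues, with 0.838% to 8.12% of a head library and 2.52% to 6.3% of a body column library. With that transcript left out, the share of the top 100 was 27.7% ± 0.438% in heads (SD, n = 4) and 30.9% ± 0.841% in body columns (SD, n = 3), and the tissues did not overlap (exact permutation p = 0.0571). Library totals averaged 18640000 ± 1672000 in heads (SD, n = 4) and 16890000 ± 773000 in body columns (SD, n = 3), which overlapped (exact permutation p = 0.114, adjusted 0.143).

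**Figure D1:**
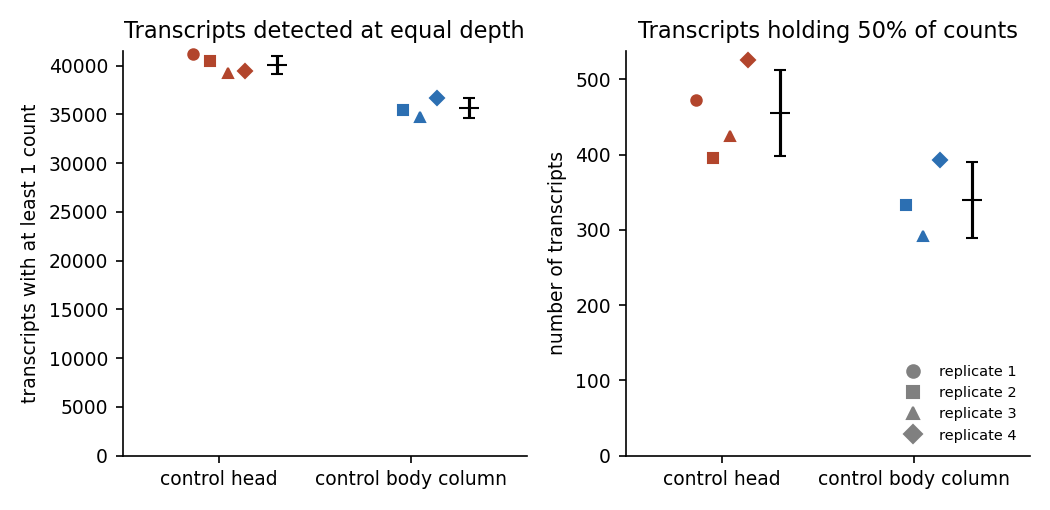
Number of transcripts with at least 1 count after thinning to equal depth (left) and number of transcripts that hold 50% of a library (right), per control library, with the mean and SD of each tissue as bars. The 4 heads lie above the 3 body columns in both panels, by a small margin in the right one.

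The control libraries separated by tissue. The first principal component of log2 CPM held 45.7% of the variance and placed the heads between 79.6 and 103 and the body columns between −133 and −118. Over the tested transcripts, which are no independent replicates, log2 CPM correlated with r of 0.9 to 0.912 for pairs of heads, 0.887 to 0.898 for pairs of body columns, and 0.799 to 0.829 between tissues. The chi-square per degree of freedom between libraries of 1 tissue was 14 to 55.3, far above counting noise. It can rest largely on a few transcripts with many counts, and it does not show whether the spread is technical. Each library was kept as its own replicate. Among 18793 transcripts with at least 10 counts in all 7 libraries, the coefficient of variation beyond counting error was 17.4% in heads and 19.4% in body columns, and over all 27289 tested transcripts it was 40.7% and 48.9%. The second component held 13.8% and set body column replicate 2, at −108, apart from replicate 3, at 112. Of the 100 transcripts with the largest weight on it, 100 were listed at 0 in one of these body columns, and 97 had an exact 0 beside at least 100 counts in another library of the same tissue.

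Of 27289 transcripts that passed the filter on low counts, 8160 differed between head and body column of control polyps, which is 29.9% of those tested (edgeR quasi-likelihood test on the 7 control libraries, BH adjusted p under 0.05). Calls were nearly equal in number, with 4062 transcripts more abundant in the head (14.9%) and 4098 more abundant in the body column (15%). The libraries of the tissues did not overlap for 11181 tested transcripts (41%), and for 8074 of the 8160 called ones. The near equality rested on a correction for RNA composition. Composition factors (TMM), which correct library sizes for differences in RNA composition, were 1.01 to 1.09 in heads and 0.914 to 0.994 in body columns. With another such correction (RLE size factors) 4133 transcripts were higher in the head and 3980 in the body column, and with a DESeq2 Wald test 4796 and 4305. With library totals alone 4883 transcripts were higher in the head and 2843 in the body column. The median log2 difference of all tested transcripts then moved from 0.034 to 0.17.

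The sizes of the differences were not equal between directions. Among called transcripts, the median log2 difference was 1.28 for those higher in the head, with quartiles at 0.71 and 2.36, and −0.79 for those higher in the body column, with quartiles at −1.45 and −0.51. Over all tested transcripts the median absolute log2 difference was 0.52. Differences of at least 1 on the log2 scale, which is 2-fold, were called for 2483 transcripts with the higher level in the head (9.1% of those tested) and for 1604 with the higher level in the body column (5.88%). At a log2 difference of at least 2 the numbers were 1241 (4.55%) and 525 (1.92%). Part of these are transcripts at or under 3 counts in every library of the other tissue, where the fitted difference has no fixed size. There were 384 such called transcripts on the head side and 69 on the body column side. With them set to the lowest fold that a floor of 3 counts per library allows, 1202 and 525 reached a log2 difference of 2. All such transcripts stayed at a log2 difference of at least 1. The medians, 1.28 and −0.79 as before, thus had little room to move and are no check. Without these transcripts, 857 on the head side and 456 on the body column side reached a log2 difference of 2.

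The head group held one library more than the body column group. In the 4 fits with 3 heads against 3 body columns, each without 1 head, log2 differences of at least 1 numbered 2119 to 2250 on the head side and 1513 to 1600 on the body column side. At least 2 was reached by 1048 to 1123 and by 503 to 570. The excess of large differences in the direction of the head was thus present at equal group sizes.

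**Figure D2:**
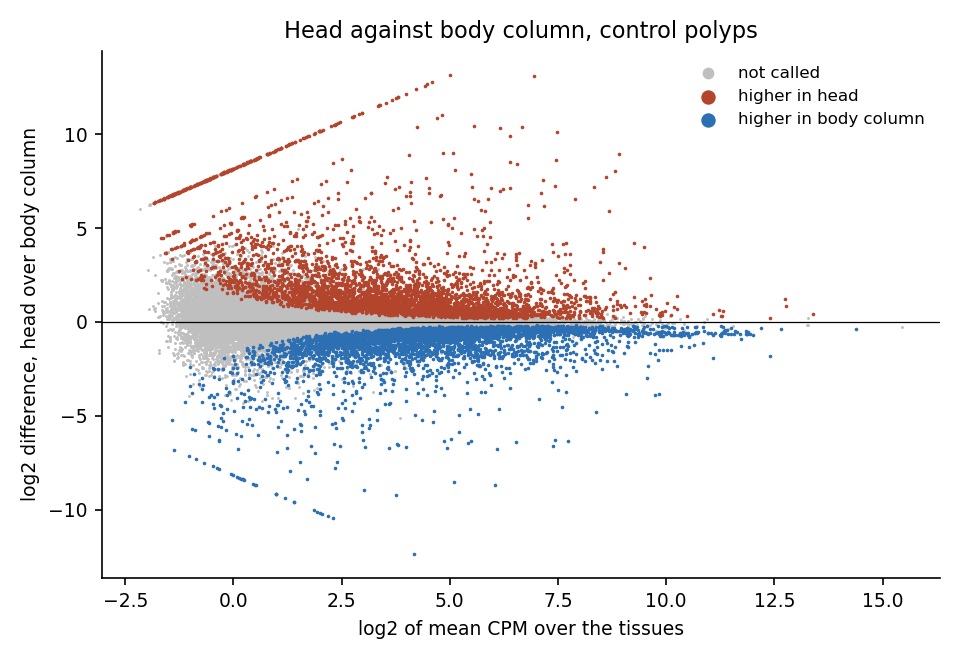
Log2 difference between head and body column (vertical) against the log2 of the mean CPM over the tissues (horizontal) for the 27289 tested transcripts of control polyps, with called transcripts in colour. Straight lines of points at the upper left and lower left are transcripts listed at or near 0 in one tissue, whose fitted difference has no fixed size, and many more of them lie on the head side.

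The direction of the difference changed with the mean CPM, which does not rank RNA abundance since contig lengths were not used. Under 1 CPM, on the mean of the 2 tissue means, 309 of 4586 tested transcripts were called on the head side (6.74%) and 60 on the body column side (1.31%). From 1 to 4 CPM these shares were 9.88% and 5.04%, and from 4 to 16 CPM they were 16.9% and 16.2%. Above that the order turned with TMM factors. From 16 to 64 CPM, 23% were higher in the head and 28.9% in the body column, from 64 to 256 CPM 24.4% and 37.1%, and over 256 CPM 112 of 546 (20.5%) and 286 of 546 (52.4%). The differences on the body column side were small there, with a median log2 difference of −0.57 among the 286, and 53 of them reached 1 on the log2 scale.

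Among the 100 transcripts with the highest mean CPM, which ranged from 1129.9 to 44509, 74 were higher in the body column, 13 higher in the head and 13 not called. Only 6 of the 74 and 2 of the 13 differed by at least 1 on the log2 scale, and the median log2 difference of the 100 was −0.55. Scaling moved the numbers and kept the direction for this set, since 66 were higher in the body column and 16 in the head with library totals alone, and 76 and 14 in a DESeq2 Wald test. For the 2378 transcripts over 64 CPM the direction did turn with the scaling, from 966 higher in the body column and 559 in the head with TMM factors to 669 and 694 with library totals alone. Of the 546 over 256 CPM, 226 were higher in the body column and 134 in the head with library totals alone. The order given above for 64 to 256 CPM therefore did not hold with library totals alone. The class from 16 to 64 CPM was not counted apart with library totals, so its order is given for TMM factors only. With library totals alone, over all tested transcripts, 4883 were higher in the head and 2843 in the body column. Under 4 CPM transcripts higher in the head were the larger number under both, 1079 against 453 with TMM factors and 1225 against 361 with library totals. In the 4 fits with 3 heads against 3 body columns the numbers under 4 CPM were 757 to 820 and 367 to 401. The excess on the head side was thus smaller at equal group sizes and still present. The tissues shared most of their leading transcripts, since 79 of the 100 with the highest mean in heads were also among the 100 highest in body columns, and 791 of 1000.

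**Figure D3:**
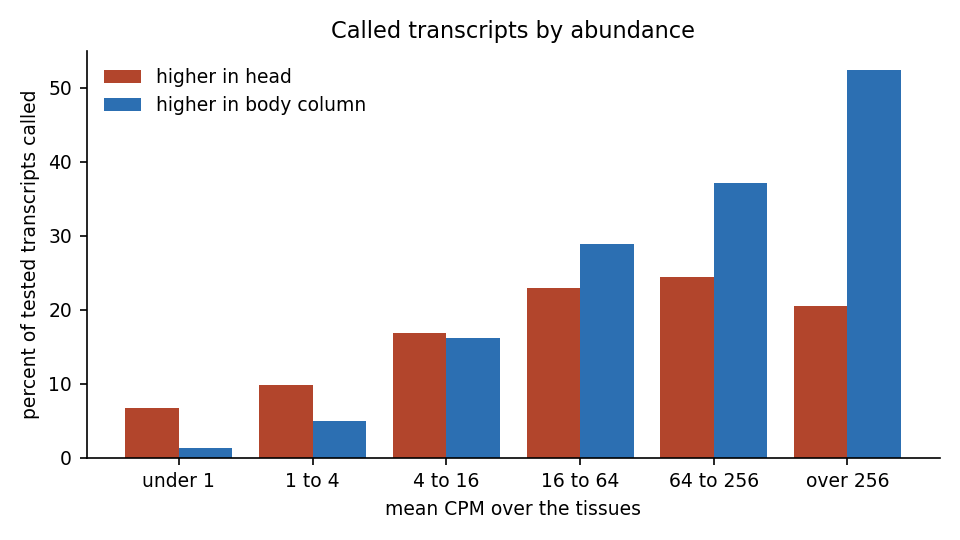
Percent of tested transcripts called higher in either tissue of control polyps (vertical), in 6 classes of mean CPM over the tissues (horizontal). Bars for the head are the taller ones under 16 CPM, and those for the body column reach 52.4% over 256 CPM.

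Library counts held by the called transcripts were then summed, without regard to contig length. The 2483 transcripts at least 2-fold higher in the head took 11.5%, 10.1%, 11.4% and 11.7% of the counts in the 4 heads and 2.83%, 2.61% and 2.94% in the 3 body columns. The 1604 transcripts at least 2-fold higher in the body column took 11.3%, 11.1% and 11.3% in body columns and 4.04%, 4.1%, 3.49% and 3.47% in heads. The 2494 transcripts higher in the body column by less than 2-fold took 30.3% to 32.9% of head counts and 39.9% to 41.3% of body column counts, and the 1579 higher in the head by less than 2-fold took 14.9% to 16.5% and 9.55% to 10.2%. These shares come from the libraries that chose the lists and are a description. The RNAi libraries took no part in the choice. In them the first list held 7.9% to 9.28% of head counts and 2.84% to 3.1% of body column counts, and the second 3.47% to 4.48% of head counts and 10.9% to 11.6% of body column counts.

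The transcripts named here had the largest differences in mean CPM among 3166 called transcripts with a log2 difference of at least 1, no overlap between tissues and over 3 counts in all 7 libraries. Of these 3166, 1776 were higher in the head and 1390 in the body column.

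GGKF01018202.1, the transcript with the largest excess in the head, had 9951, 8122, 9824 and 10596 CPM in heads 1 to 4 and 4364, 3039 and 4979.6 CPM in body columns 2, 3 and 4. The lowest head was well above the highest body column. Its mean was 9623 ± 1056 CPM in heads (SD, n = 4) and 4127 ± 992 CPM in body columns (SD, n = 3), a log2 difference of 1.22 ± 0.17 (standard error, SE; adjusted p = 0.00132 in edgeR). It ranked 8 among all tested transcripts by CPM, and its 2.33-fold difference was not shown to exceed 2-fold (edgeR glmTreat, BH adjusted p = 0.296).

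GGKF01026231.1 differed by more in relative terms. It had 1401, 1345, 1535 and 1147 CPM in the heads and 55.9, 141 and 57.2 CPM in the body columns. Body column replicate 3 was more than 2 times as high as the other body columns and still far below every head. The log2 difference was 4.00 ± 0.37 (SE), or 16-fold (adjusted p = 0.000177 in edgeR).

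GGKF01028848.1 had the largest excess in the body column. It stood at 8055, 8433 and 8516 CPM in the body columns and at 2954, 2535, 2255 and 1919.7 CPM in the heads. Body columns varied little, with a mean of 8335 ± 246 CPM (SD, n = 3), and heads more, with 2416 ± 438 CPM (SD, n = 4). The log2 difference of head over body column was −1.79 ± 0.13 (SE; adjusted p = 6.14e-05 in edgeR).

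GGKF01033807.1 followed with 3679, 3597 and 2996 CPM in the body columns and 1095, 1258, 712 and 607 CPM in the heads. Heads 1 and 2 were higher than heads 3 and 4, and all 4 were below every body column. The log2 difference was −1.90 ± 0.25 (SE; adjusted p = 0.000918 in edgeR). Expected counts of GGKF01028848.1 and GGKF01033807.1 were whole numbers in all 7 libraries, while those of GGKF01018202.1 and GGKF01026231.1 were not, as happens where a program divides reads between similar contigs.

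**Figure D4:**
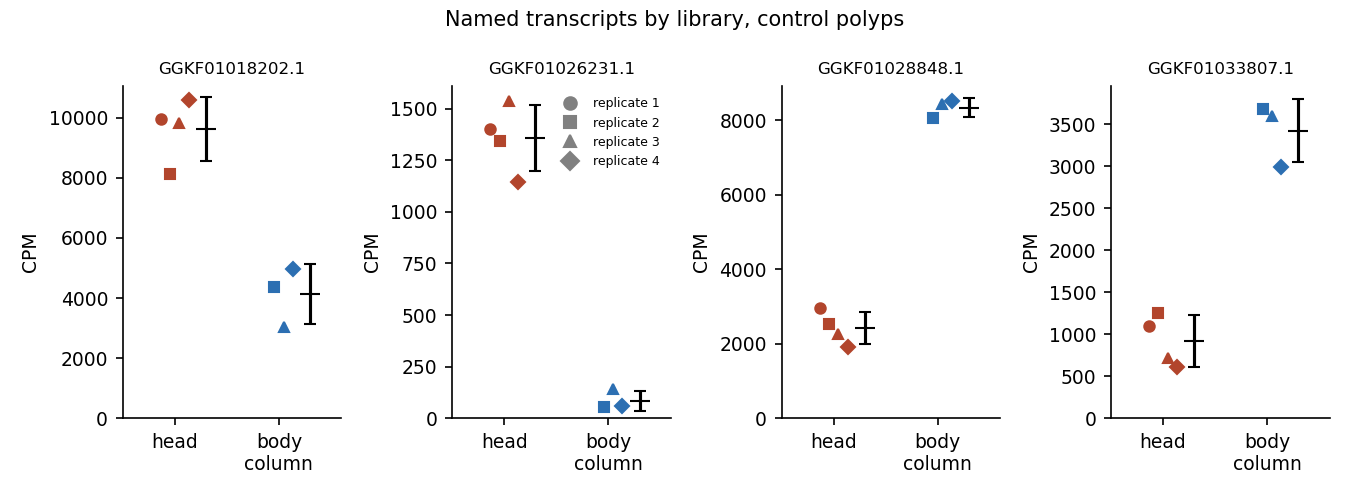
CPM of the 4 named transcripts in each control head and control body column (linear axes from 0), with the mean and SD of each tissue as bars. In each panel the 4 heads and the 3 body columns do not overlap.

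In the RNAi libraries these transcripts had tissue differences of the same direction. In 1 model of all 15 libraries the log2 difference of head over body column was 1.24 in control and 0.98 in RNAi polyps for GGKF01018202.1, and 4.02 and 4.20 for GGKF01026231.1. For GGKF01028848.1 it was −1.77 and −1.83, and for GGKF01033807.1 −1.88 and −2.11. The test of the difference between control and RNAi polyps gave edgeR BH adjusted p of 0.612, 0.939, 0.953 and 0.771, with SE of that difference between 0.20 and 0.54 on the log2 scale, so a change of the tissue difference by RNAi was not shown for any of the 4.

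Some transcripts were found in one tissue and not detected in the other. With at least 1 CPM in every library of one tissue and at most 3 counts in every library of the other, 171 transcripts were found in the head and 52 in the body column. Those found in the head had a median of 3.57 CPM in heads, with quartiles at 2.06 and 8.28, and 37 of them reached 10 CPM and 2 reached 100 CPM. Those found in the body column had a median of 2.86 CPM in body columns, with quartiles at 2.1 and 5.43, and 4 of them reached 10 CPM and 0 reached 100 CPM. Together they took few of the counts, between 0.174% and 0.21% of head counts and between 0.0225% and 0.0293% of body column counts. At most 3 counts is a limit of detection at this depth and does not show absence. The limit was not alike for the lists. It had to hold in 3 body columns for the head list and in 4 heads for the body column list. It was also a lower CPM in heads, whose totals averaged 18640000 against 16890000 in body columns. Chosen from 3 heads and 3 body columns, with each head left out in turn, the lists held 191 to 201 and 64 to 96.

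Between libraries of the same tissue, patterns with the same limits were counted for 1 library set against the others. In each head, 136 to 215 transcripts were at or under 3 counts there while the other 3 heads had at least 1 CPM, and in each body column 304 to 451 were so against the other 2. The reverse pattern, at least 1 CPM in 1 library and at most 3 counts in all others of its tissue, was met by 188 to 232 transcripts per head and 452 to 489 per body column. At 10 CPM in that library it was met by 0 to 8 per head and 6 to 16 per body column. The lists of transcripts found in one tissue asked for more. They required at least 1 CPM in every library of that tissue and at most 3 counts in every library of the other, not in 1 library. Their sizes are therefore not directly comparable with these counts. Both lists depended on single libraries. A list that sets a limit in every library can only grow when 1 is left out. Transcripts above 3 counts in the library left out are those that it had kept off the list. Without body column replicate 4 the head list held 281 transcripts, of which 110 were above 3 counts in that library, a share of 39.1%. For body columns 2 and 3 the shares of the same kind were 30.2% and 25.3%. Without head replicate 2 the body column list held 96, of which 44 were above 3 counts in it (45.8%), against 18.8% to 31.6% for the other heads. Without body column replicate 4 the body column list held 84.

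In the RNAi libraries, which had no part in choosing the lists, the tissue pattern was kept in part. Of the 171 transcripts found in control heads, 136 were above 3 counts in all 4 RNAi heads and 81 (47.4%) were at most at 3 counts in all 4 RNAi body columns, while 7 were above it in all 4. Single RNAi body columns had 16.4% to 32.7% of the list above 3 counts, and RNAi heads 88.9% to 93.6%. Of the 52 found in control body columns, 40 were above 3 counts in all 4 RNAi body columns and 11 (21.2%) were at most at 3 counts in all 4 RNAi heads, while 7 were above it in all 4. Single RNAi heads had 32.7% to 51.9% of that list above 3 counts. RNAi libraries differ from control libraries in treatment as well, and its part in these numbers was not tested.

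**Figure D5:**
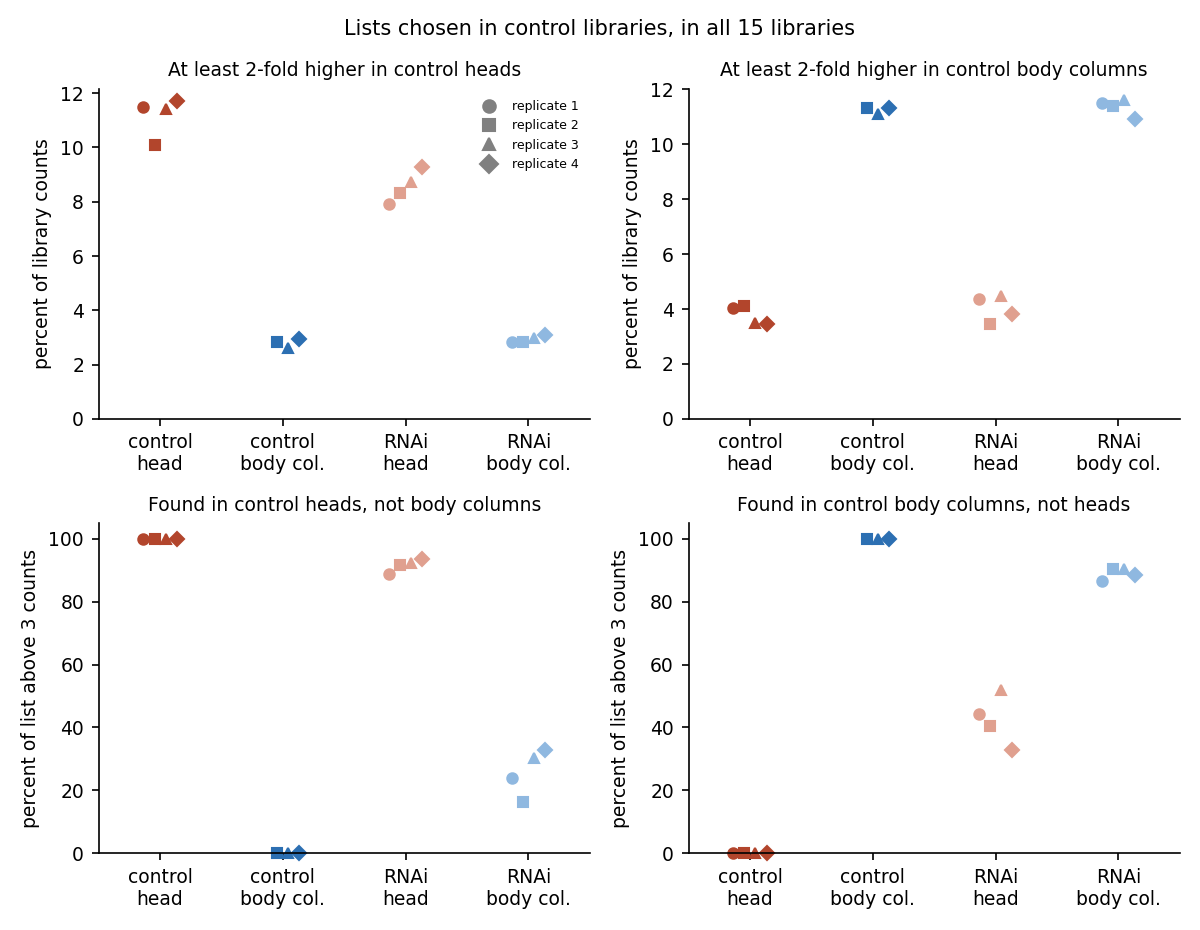
Percent of library counts held by transcripts called at least 2-fold higher in control heads or control body columns (upper panels), and percent of the 171 and 52 transcripts found in one control tissue that were above 3 counts (lower panels), for each of the 15 libraries. Control values follow from the choice of the lists, and the RNAi libraries, which were not used to choose them, separate by tissue in all 4 panels.

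The whole set of calls was then read in the RNAi libraries, fitted alone, where 30.8% of 25255 tested transcripts differed between tissues, 15.1% higher in the head and 15.7% in the body column (edgeR, adjusted p under 0.05). Of the 8160 transcripts called in control polyps, 7862 were tested there, 7405 (94.2%) had the same direction, 5437 (69.2%) were called in the same direction and 59 were called in the opposite one. The share called in the same direction was 62.6% for control log2 differences under 1, 73.7% from 1 to 2, 81% from 2 to 3 and 79.6% for 3 or more, where 769 of 1021 were tested in the RNAi libraries. Of the 59 opposite calls, 53 had a control difference under 1. By side, 3800 of the 4062 transcripts higher in the control head and 4062 of the 4098 higher in the control body column were tested. Of those tested, 68.9% and 69.4% were called in the same direction. These shares were 63.6% and 61.9% for control differences under 1, 69.6% and 78.4% from 1 to 2, 76.7% and 88.2% from 2 to 3, and 76.4% and 87.2% for 3 or more. In that last class 542 of 765 on the head side were tested and 227 of 256 on the body column side, so more head calls had no test there. Over all tested calls the median log2 difference was 1.20 in control and 0.81 in RNAi polyps for the head side, and −0.78 and −0.53 for the body column side. The control values chose these transcripts, and the part of that choice in the gap between the medians was not tested.

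Reads that match several similar contigs make values of single contigs uncertain. Expected counts were whole numbers in all 7 libraries for 3856 tested transcripts, of which 1782 (46.2%) were called, 783 higher in the head and 999 in the body column. Of the other 23433, with a value that was not whole in at least 1 library, 6378 (27.2%) were called, 3279 higher in the head and 3099 in the body column. The first set also had more counts, with a median of 8.52 CPM against 4.53, and the part of depth in the difference between these shares was not tested. An exact 0 beside at least 100 counts in another library of the same tissue occurred for 529 tested transcripts, 363 in heads and 256 in body columns, and 10 of the 529 (1.89%) were called. Such zeros can be failed estimates.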

How the data were processed

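Stranded libraries of polyadenylated RNA were sequenced, per the labels' protocols. The authors deposited expected counts (estimated counts) per assembled transcript for 79784 contigs, of which 74.2% of the nonzero values were not whole. The submitters' processing notes name Salmon and DESeq2 1.26.0 without stating their role; the transcriptome and settings are not given in the sources used here. Counts were rounded, which changed a total by at most 145. No column was left without a sample (0).

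In the 7 control libraries 58521 contigs had a count. The edgeR filter filterByExpr, with its minimum count of 10, left 27289 transcripts with 99.5% to 99.7% of the counts. TMM factors, the quasi-likelihood test (edgeR 4.0.16, R 4.3.3) of tissue and Benjamini-Hochberg adjustment over all tested transcripts followed, with 0.05 as the threshold. The RNAi libraries were fitted alone in the same way, and all 15 together for the difference of the tissue differences. The code was tested on simulated data. Standard errors were derived from the fitted difference and its F statistic. Principal components used log2 CPM with a prior count of 2. For library measures the exact permutation test of scipy 1.17.1 was used, two-sided. A count of at most 3 was taken as the floor; amplified reads are no independent molecules, so it covers the error of counting alone.

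Named transcripts were the 2 in each direction with the largest difference in mean CPM among those called, at least 2-fold different, not overlapping and over 3 counts in all 7 libraries. The comparison, its tests and lists were chosen with earlier results of these data known. Alternatives were other scalings, filters and tests (DESeq2 1.42.0 among them), a replicate block, 1 model of all libraries, and leaving out each library; leaving out transcripts with isolated zeros was added after the data were seen.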

Additional observations from a re-analysis of the deposited data

Results flagged for a closer look

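Among 17 sets of 4 libraries checked for a library far from the others, 1 stood out, and chance alone gives about 1 in 20. GGKF01026231.1 had 924 CPM in Zic4 RNAi head replicate 1, against 1368, 1337 and 1358 CPM in the other RNAi heads. The control heads, on which its tissue difference rests, ranged from 1147 to 1535 CPM without such a gap.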

How the results depend on the processing

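The number of transcripts called between control head and body column was 8160 and stayed within 1.5 times of that in 1 model of all 15 libraries (8940), with a DESeq2 Wald test (9101), with library totals alone (7726), with no filter on low counts (6932) and in the 7 fits that left out 1 library (6797 to 7112). Requiring a log2 difference of at least 1 gave 4087, 2483 higher in the head and 1604 in the body column, and testing against that difference with glmTreat gave 1981, 1224 and 757, since both ask for more than a difference from 0. With the replicate block 4798 were called, 2386 higher in the head and 2412 in the body column. That fit sets a level for each replicate number, which leaves less to estimate the spread. The head of replicate 1 has no control body column of its number and so adds nothing to the tissue difference there. The cause of the lower number of calls was not tested. Deviations of same-numbered heads and body columns correlated at −0.0158 to −0.00367 across transcripts, against −0.0568 to 0.0407 for pairs with unlike numbers. Whether libraries of the same number belong together was not tested. Transcripts found in 1 tissue depended on the limits. With at least 5 CPM required there were 55 in the head and 12 in the body column, with at least 0.5 CPM 300 and 79, and with an exact 0 in the other tissue 106 and 27. Leaving out 1 library, which can only lengthen such lists, gave 191 to 281 and 64 to 96. The difference in the share of the 100 leading transcripts, −3.34 percentage points for head minus body column, ranged from −4.44 to −2.33 with 1 library left out and turned to 0.615 for the 10 leading transcripts (exact permutation p = 0.857), and the cause was not tested. Head libraries detected 3964 to 4986 more transcripts than body columns with 1 library left out. Of the 4 named transcripts, 3 stayed called in all 18 alternatives and GGKF01018202.1 in 17 of 18.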
